A study of Homo sapiens with 18 samples.

Results

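The epidermal growth factor (EGF) receptor family was examined in HCT116 cells through 8 genes chosen by symbol, 3 receptors (EGFR, ERBB2 and ERBB3), 4 ligands (AREG, EREG, TGFA and HBEGF) and ERRFI1, an inhibitor of the receptors. All 8 were found among the 38055 genes of the whole transcriptome table. HCT116 is a human colorectal carcinoma line of epithelial cells, and every library came from wild-type cells of this one line grown in McCoy's 5A medium with serum. Whole cell RNA was taken on day 3, at 50% confluency, and on day 5, at 250% confluency, from 3 biological replicates per day, and the comparison asks how the RNAs differ once the cells have overgrown a single layer. Time in culture, medium use and cell density changed together, so their parts in any difference cannot be told apart. In whole cell RNA from a culture, fewer cells that carry an RNA and less of it per cell cannot be told apart either.

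EGFR, ERBB2 and ERBB3 are receptor tyrosine kinases that work in pairs. A ligand opens the outer part of a receptor so that 2 receptors can join and phosphorylate each other's tails, which then recruit adaptors that switch on RAS and the MAP kinases ERK1 and ERK2 as well as PI3 kinase. ERBB2 binds no known ligand and serves as a partner, and ERBB3 has little kinase activity of its own but recruits PI3 kinase strongly. Amphiregulin (AREG), epiregulin (EREG), transforming growth factor alpha (TGFA) and heparin-binding EGF (HBEGF) are made as membrane proteins and released by cutting at the cell surface, in the main by the protease ADAM17. ERRFI1, also called MIG6, is itself induced by ERK activity, binds the active kinase and shuts it off. In colorectal cancer, EGFR is the target of therapeutic antibodies, and high AREG and EREG are known as features of tumours that depend on the receptor.

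The sequences before the start sites of 4 of these genes are shown because EGFR and ERRFI1 had the largest changes and AREG and EREG lie beside each other in the genome. AREG (ENSG00000109321) occupies bases 74445136 to 74455005 of chromosome 4 (GRCh38, plus strand) and EREG (ENSG00000124882) bases 74365145 to 74388749, on the same strand. A gap of 56386 bases with no protein-coding gene separates EREG from AREG, and EPGN and BTC, which encode further ligands of the receptor, are the protein-coding neighbours on either side of the pair. EGFR (ENSG00000146648) spans chromosome 7 from 55019017 to 55211628 on the plus strand, and ERRFI1 (ENSG00000116285) chromosome 1 from 8004404 to 8026309 on the minus strand. Each sequence runs 5′ to 3′ from 250 bases before to 50 bases after a start annotated by RefSeq (build GRCh38.p14). Capitals mark matches, on either strand, to the cyclic AMP response element TGACGTCA, the AP-1 element TGANTCA, the TEAD element GGAATG, the hypoxia element NACGTG and the GC box GGGCGG.
AREG promoter, chr4:74444886-74445185, plus strand: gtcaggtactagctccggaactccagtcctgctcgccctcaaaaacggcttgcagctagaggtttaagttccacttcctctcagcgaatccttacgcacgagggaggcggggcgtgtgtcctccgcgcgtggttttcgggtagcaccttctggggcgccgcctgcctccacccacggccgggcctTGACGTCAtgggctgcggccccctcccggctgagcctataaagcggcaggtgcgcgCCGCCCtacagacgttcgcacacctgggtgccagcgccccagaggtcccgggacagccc
EREG promoter, chr4:74364895-74365194, plus strand: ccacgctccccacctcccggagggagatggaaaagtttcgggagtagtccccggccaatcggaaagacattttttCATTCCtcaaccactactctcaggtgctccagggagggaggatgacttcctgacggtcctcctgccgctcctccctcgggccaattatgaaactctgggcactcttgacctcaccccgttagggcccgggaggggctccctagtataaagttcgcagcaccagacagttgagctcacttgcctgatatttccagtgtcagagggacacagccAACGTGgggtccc
EGFR promoter, chr7:55018767-55019066, plus strand: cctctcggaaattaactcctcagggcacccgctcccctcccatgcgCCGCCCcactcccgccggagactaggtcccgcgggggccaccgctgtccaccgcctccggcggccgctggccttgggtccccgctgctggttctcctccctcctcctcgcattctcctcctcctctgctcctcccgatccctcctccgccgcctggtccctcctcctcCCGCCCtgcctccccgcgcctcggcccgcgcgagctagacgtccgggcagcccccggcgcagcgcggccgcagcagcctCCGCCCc
ERRFI1 promoter, chr1:8026260-8026559, minus strand: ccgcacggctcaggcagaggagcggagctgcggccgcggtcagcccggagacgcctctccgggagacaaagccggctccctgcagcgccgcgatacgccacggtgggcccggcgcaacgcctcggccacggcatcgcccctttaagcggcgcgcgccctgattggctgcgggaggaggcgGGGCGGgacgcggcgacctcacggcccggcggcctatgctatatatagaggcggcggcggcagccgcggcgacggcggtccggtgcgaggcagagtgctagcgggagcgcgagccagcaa

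The AREG promoter held the cyclic AMP response element, with its first base at -65 from the start, and a GC box at -9. The element was present in 1.85% of the 35116 promoters of this length and in none of the other promoters found for these genes. The EREG promoter held a TEAD match at -175, a motif in 14% of all promoters, and a hypoxia match at 38, a motif in 21.4%. At the EGFR start shown there were 3 GC boxes, and ERRFI1 had 1, against 45.0% of all promoters with at least 1. A further EGFR start, inside the gene, carried 2 AP-1 matches and 1 TEAD match. The ERBB2 window found, chr17:39687844-39688143, carried 1 AP-1 match (7.71% of all promoters have one). Whether its start is that of the ERBB2 reference transcript was not checked. The main TGFA start had 4 GC boxes and that of HBEGF 5, and no promoter of ERBB3 was matched. These matches are letters in the window only and no binding was measured here. No one element was found in all of the genes, and the GC box was the most frequent, in 5 of the 7 genes with a promoter.

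Each library had between 27470978 and 56689369 reads counted on genes. The values below are normalized read counts, in which the reads of a gene were divided by 1 factor per library, and a change is a difference in log2(normalized read count + 1) between day 5 and day 3 with its standard error (SE). Changes were tested with limma over the 20129 genes that reached a value of 10 in at least 3 of the 6 libraries, with Benjamini-Hochberg adjustment over all of them. With the threshold on the adjusted p-value at 0.05, 56.9% of these genes differed between the days, 29.3% higher and 27.6% lower on day 5, so a call by itself sets no gene apart. Of the epithelial markers, EPCAM, CDH1, KRT8, KRT18, KRT19, CLDN7 and CDX2 were present and VIL1 stayed at or below 5.18. The summed value of the 8 markers was 37951.6 to 56303.9 on day 3 and 103347.0 to 104135.2 on day 5, CDH1 rising 6.18-fold while EPCAM stood at 7226.9 on day 3 and 7236.1 on day 5. Markers of leukocytes summed to between 6.15 and 11.7 on day 3 and between 17.1 and 20.6 on day 5, and those of endothelium to between 15.6 and 27.2 and between 39.3 and 68.3. The fibroblast list, almost all of it COL1A1, summed to between 525.9 and 604.9 on day 3 and between 1123.5 and 1200.1 on day 5, with DCN at 0 in all libraries but day 3 replicate 2, where it had 7 reads. The part of these markers in the changes below was not tested.

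**Figure D1:**
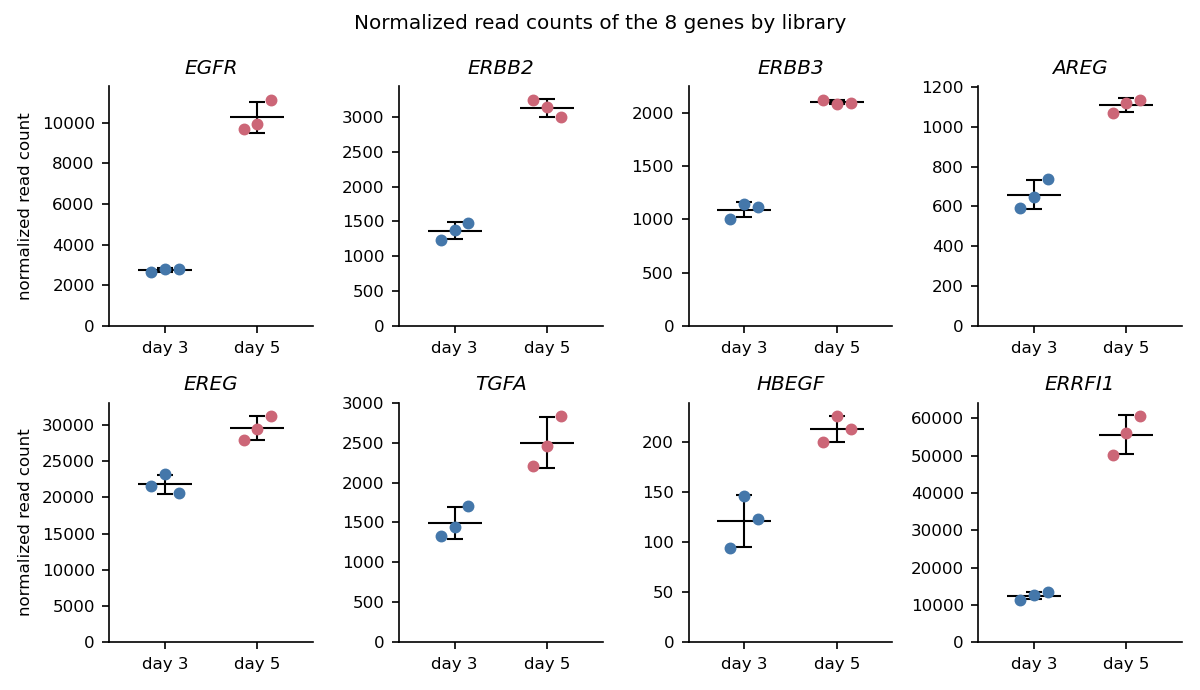
Normalized read counts of the 8 genes in each library (points), by day, with the mean (wide bar) and SD (error bar, n = 3), each panel on its own linear axis from 0. In all 8 panels the 3 day 5 libraries lie above the 3 day 3 libraries, by the widest margin for EGFR and ERRFI1.

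All 8 genes rose on day 5, and for each of them the libraries of the 2 days did not overlap. Over all genes tested, 29.3% were called higher. How many of all genes tested had no overlap was not counted, so the lack of overlap sets no gene apart. The log2 fold changes of the 8 genes ran from 0.44 for EREG to 2.15 for ERRFI1, with a median of 0.89 against 0.01 over all genes tested. The 8 genes were listed with earlier results of these data known, so their shared direction is a description of this list and not independent evidence for the family. Of the 8 further receptors and ligands of the family, 7 could be tested, none was higher, NRG1 and NRG4 were lower and 5 did not pass, with a median log2 fold change of -0.48.

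Among the receptors the order of the changes was EGFR, ERBB2, ERBB3. EGFR, to which all 4 ligands bind, had values of 2638.3, 2799.1 and 2808.2 on day 3 and of 9719.2, 9949.5 and 11143.9 on day 5. The day 3 libraries were close together and each day 5 library was more than 3 times any of them. The means were 2748.5 ± 95.6 and 10270.9 ± 764.8 (SD, n = 3 libraries each), a 3.74-fold difference and a log2 fold change of 1.90 (SE 0.09, 95% interval 1.69 to 2.11, adjusted p = 0.00014 from limma). Only 1.51% of the genes tested had a larger rise.

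ERBB2, the partner without a ligand (ENSG00000141736, chromosome 17 from 39687914 to 39730426, plus strand), stood at 1235.3, 1382.8 and 1478.5 on day 3 and at 3247.0, 3145.7 and 2995.7 on day 5. It rose 2.29-fold, by 1.20 on the log2 scale (SE 0.10, 95% interval 0.97 to 1.43, adjusted p = 0.00029 from limma). ERBB3 (ENSG00000065361, chromosome 12 from 56076799 to 56103505, plus strand) went from 1007.0, 1143.6 and 1119.9 to 2123.4, 2083.6 and 2092.7. Its day 5 libraries were nearly level with each other, with an SD of 20.9 around 2099.9. The rise was 1.93-fold, a log2 fold change of 0.95 (SE 0.08, 95% interval 0.75 to 1.15, adjusted p = 0.000346 from limma). The intervals of EGFR and ERBB2 did not overlap, whereas those of ERBB2 and ERBB3 did.

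ERBB4, the remaining receptor of the family, was close to absent, with 6 to 17 reads per library. Its normalized read count was 12.3 ± 1.83 on day 3 and 9.92 ± 3.03 on day 5 (SD, n = 3), and its log2 fold change of -0.32 did not pass (adjusted p = 0.293 from limma). With so few reads the 95% interval of the difference ran from -0.91 to 0.27, and the change was -0.065 without day 5 replicate 2.

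The fold changes of the 4 ligands were all below those of the 3 receptors, although the intervals of AREG, TGFA and HBEGF overlapped those of ERBB2 and ERBB3. EREG was by far the most abundant of them, with values of 21593.1, 23224.5 and 20665.7 on day 3 and of 27982.1, 29480.9 and 31220.9 on day 5. This 1.35-fold difference was the smallest of the 8, a log2 fold change of 0.44 (SE 0.09, 95% interval 0.23 to 0.65, adjusted p = 0.00631 from limma), and 29.1% of the genes tested rose by more. AREG, its neighbour on chromosome 4, went from 593.5, 644.7 and 735.7 to 1069.3, 1121.1 and 1135.9. AREG rose 1.69-fold, a log2 fold change of 0.76 (SE 0.10, 95% interval 0.51 to 1.01, adjusted p = 0.00139 from limma). Although the 2 genes adjoin, the ratio of EREG to AREG per transcript length was 9.73, 9.63 and 7.51 in the day 3 libraries and 7.00, 7.03 and 7.35 in the day 5 libraries, so day 3 replicate 3 lay near the day 5 values.

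TGFA (ENSG00000163235, chromosome 2 from 70447284 to 70554193, minus strand) had values of 1325.8, 1447.7 and 1708.2 on day 3 and of 2204.8, 2463.0 and 2831.0 on day 5. The rise was 1.67-fold, 0.74 on the log2 scale (SE 0.14, 95% interval 0.40 to 1.08, adjusted p = 0.00518 from limma). HBEGF (ENSG00000113070, chromosome 5 from 140332843 to 140346603, minus strand), which also serves as the diphtheria toxin receptor, was the weakest of the 8. It had 87 to 237 reads per library, with normalized read counts of 94.8, 146.5 and 123.3 on day 3 and of 200.6, 226.1 and 213.3 on day 5. Its 1.76-fold rise had the widest error, with a log2 fold change of 0.83 (SE 0.17, 95% interval 0.42 to 1.24, adjusted p = 0.00694 from limma). AREG, TGFA and HBEGF had overlapping intervals and could not be ranked by the size of their change.

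ERRFI1, the inhibitor, changed most. Its values were 11413.8, 12676.7 and 13372.1 on day 3 and 50061.3, 56153.6 and 60569.7 on day 5, so the lowest day 5 library stood far above the highest of day 3. The mean rose 4.45-fold, from 12487.5 ± 992.8 to 55594.9 ± 5276.5 (SD, n = 3 libraries each), a log2 fold change of 2.15 (SE 0.11, 95% interval 1.89 to 2.42, adjusted p = 0.000156 from limma). Of the genes tested, 0.879% had a larger rise. Per transcript length, the ratio of ERRFI1 to EGFR was 13.8, 14.5 and 15.2 in the day 3 libraries and 16.5, 18.1 and 17.4 in the day 5 libraries, and the libraries of the 2 days did not overlap.

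**Figure D2:**
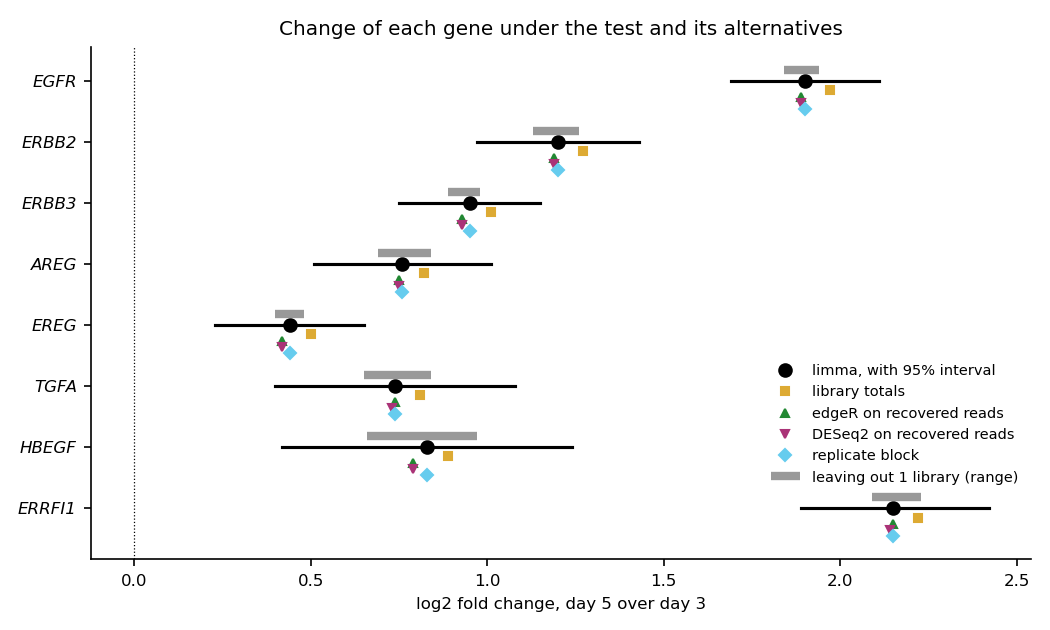
Log2 fold change of day 5 over day 3 for the 8 genes from limma (black point, line for the 95% interval) and from 4 alternatives (coloured symbols), with the range over fits that each leave out 1 library (grey bar). All values lie to the right of 0, from 0.44 for EREG to 2.15 for ERRFI1 in limma.

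Counts grow with the length of an RNA, so levels of different genes were compared as normalized read count per kilobase of the reference transcript. On day 3 the order was EREG (4729.7 ± 280.7, SD, n = 3), ERRFI1 (4032.1 ± 320.6), AREG (533.2 ± 58.4), TGFA (362.9 ± 47.5), ERBB2 (299.7 ± 26.9), EGFR (277.5 ± 9.65), ERBB3 (194.2 ± 13.0) and HBEGF (51.5 ± 11.0). The libraries of TGFA and ERBB2 overlapped, as did those of ERBB2 and EGFR, and the other neighbours in this order did not. On day 5 ERRFI1 (17951.2 ± 1703.7) had passed EREG (6405.5 ± 351.2), and EGFR (1036.9 ± 77.2) had moved from the sixth place to the third. AREG (898.5 ± 28.3), ERBB2 (686.7 ± 27.7), TGFA (607.1 ± 76.4), ERBB3 (374.0 ± 3.72) and HBEGF (90.5 ± 5.41) followed, and only ERBB2 and TGFA overlapped. These levels assume that the reference transcript is the form present in these cells.

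The share of each gene in its pool of RNAs was taken within a library, so that the scaling factors of the libraries cancel in the shares. The summed levels of a pool still depend on these factors. The 4 receptors summed to 772.3 ± 48.1 per kilobase on day 3 and 2098.5 ± 50.0 on day 5 (SD, n = 3), a 2.72-fold difference. EGFR made up 37.1%, 35.7% and 35.1% of the receptor pool on day 3 and 47.3%, 48.6% and 52.2% on day 5. ERBB2 went from 38.8% ± 1.22 to 32.8% ± 2.02 and ERBB3 from 25.1% ± 0.564 to 17.8% ± 0.492, while ERBB4 stayed at 0.145% or less. On day 3 EGFR and ERBB2 were therefore about level, with a ratio of 0.929 ± 0.0544, and on day 5 the ratio was 1.51 ± 0.175, with no overlap between the days.

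The 7 ligands that bind EGFR summed to 5755.7 ± 248.6 per kilobase on day 3 and 8063.9 ± 454.7 on day 5, a 1.40-fold difference. EREG made up 82.2% ± 2.28 of this pool on day 3 and 79.4% ± 0.134 on day 5, and its libraries overlapped between the days. AREG held 8.60%, 8.65% and 10.6% on day 3 and 11.4%, 11.3% and 10.8% on day 5, which did not overlap, though day 3 replicate 3 came close. TGFA held 6.31% ± 0.913 and 7.51% ± 0.521, with overlap, and HBEGF 0.892% ± 0.158 and 1.12% ± 0.0657. Without day 3 replicate 1 the HBEGF difference of 0.231 percentage points was 0.145. BTC held 1.14% ± 0.224 of the pool on day 3 and 0.667% ± 0.0693 on day 5, without overlap, and EGF and EPGN were each at 0.205% or less in every library. When values were not divided by length, the differences between the days were smaller for AREG (0.596 percentage points in place of 1.88), EREG (-1.6 in place of -2.71) and HBEGF (0.139 in place of 0.231). No test was made on these shares.

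**Figure D3:**
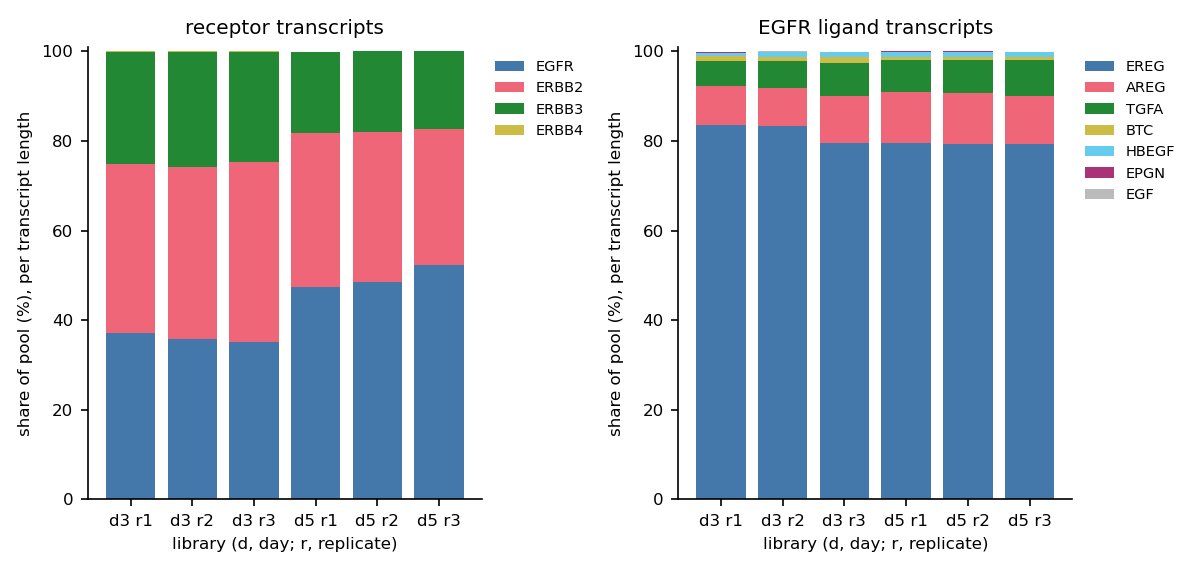
Share of each gene (%, bars from 0 to 100) in the receptor pool (left) and in the pool of EGFR ligands (right), per transcript length, in each library. EGFR widens from 35.1 to 37.1% on day 3 to 47.3 to 52.2% on day 5, while EREG fills 79.3% or more of the ligand pool in every library.

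Among the other genes of the family 28.6% of those tested were lower, close to the 27.6% over all genes tested. NRG4, a ligand of ERBB4, was lower on day 5 with a log2 fold change of -0.92 (SE 0.18, adjusted p = 0.00544 from limma), from values of 58.7 to 70.9 down to 27.1 to 42.5. NRG1, a ligand of ERBB3 and ERBB4, was lower with -0.58 (SE 0.12, adjusted p = 0.00789 from limma), from 147.1 to 164.2 down to 95.4 to 122.2. BTC, EPGN, EGF and NRG2, named after their values were seen, did not pass, with log2 fold changes of -0.27, -0.48, -0.86 and -0.18. Single libraries decided the size of these values. BTC was at -0.13 without day 3 replicate 3, NRG2 at -0.108 without day 5 replicate 1, and EPGN at -0.28 without day 3 replicate 1 and at -0.755 without day 5 replicate 1. EGF rested on 9 to 37 reads per library, and without day 5 replicate 3 its change of -1.24 passed (adjusted p = 0.0115 from limma), and with the replicate block EGF (adjusted p = 0.0469) and EPGN (adjusted p = 0.0448) passed as lower. NRG3 had 0 reads in the day 3 libraries and at most 1 read in a day 5 library, and was not tested.

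Ligand release genes did not move as one group. Of 9 listed, 8 were tested, 4 were higher, 1 was lower and 3 did not pass, with a median log2 fold change of 0.66. That is 50.0% higher and 12.5% lower, against 29.3% and 27.6% over all genes tested. This list and those of the next paragraphs were chosen with earlier results of these data known. Their shares describe the lists and are not independent evidence for a pathway. RHBDF2 and RHBDF1, the iRhoms that carry ADAM17 to the cell surface, rose by 1.14 (adjusted p = 0.000216 from limma) and 0.86 (adjusted p = 0.00942 from limma). FRMD8, which stabilizes the iRhom complex there, rose by 0.86 (adjusted p = 0.000867 from limma), and the fourth gene that rose was ADAM15. ADAM17 itself differed by -0.08 (adjusted p = 0.378 from limma), and ADAM10, another protease of this list, by 0.01 (adjusted p = 0.907 from limma). TIMP3, an inhibitor of ADAM17, did not pass at 0.48 (adjusted p = 0.0793 from limma), but passed without day 5 replicate 3 (adjusted p = 0.0376). ADAM17, ADAM10, TIMP3 and ADAM15 were named after their values were seen. ADAM12, with 1 to 3 reads per library, was not tested. ADAM9 was lower by a small amount, with -0.29 (adjusted p = 0.0195 from limma), which was lost on library totals (adjusted p = 0.0544), without the filter on low values (adjusted p = 0.117), with the replicate block (adjusted p = 0.0595) and without day 3 replicate 2 (adjusted p = 0.0703), day 5 replicate 1 (adjusted p = 0.0651) or day 5 replicate 2 (adjusted p = 0.0772).

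Of 25 adaptors and signal transducers, 24 were tested, 16 were higher, 1 was lower and 7 did not pass, with a median log2 fold change of 0.50. Of those tested 66.7% were higher and 4.17% lower, against 29.3% and 27.6% over all genes tested. GAB1, a docking protein for PI3 kinase, rose by 1.21 (adjusted p = 0.000417 from limma), STAT3 by 1.10 (adjusted p = 0.00055 from limma) and the adaptor SHC1 by 0.93 (adjusted p = 0.000777 from limma). NRAS was the one that was lower, with -0.74 (adjusted p = 0.000747 from limma). PIK3R2, with 0 to 13 reads per library, was not tested.

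Genes linked to ubiquitination, sorting and dephosphorylation of the receptors, which do not all act in the same direction, were split. Of 15 tested, 8 were higher, 3 were lower and 4 did not pass, with a median of 0.39. The shares were 53.3% higher and 20.0% lower, against 29.3% and 27.6% over all genes tested. CBL, the ubiquitin ligase that marks active EGFR for degradation, rose by 1.24 (adjusted p = 0.000353 from limma), its relative CBLB by 0.98 (adjusted p = 0.000778 from limma) and HGS, which sorts ubiquitinated receptors in endosomes, by 0.77 (adjusted p = 0.00129 from limma). SOCS4 and SOCS5, both linked to EGFR turnover, were lower with -0.81 (adjusted p = 0.00093 from limma) and -0.43 (adjusted p = 0.00512 from limma). USP8, which removes ubiquitin from receptors, was lower with -0.38 (adjusted p = 0.00604 from limma), a call lost without the filter on low values (adjusted p = 0.0513).

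All 17 listed genes that ERK activity is known to induce, many of which feed back on the pathway, were tested. Of these, 16 were higher, none was lower and 1 did not pass, so 94.1% were higher against 29.3% over all genes tested. This list too was chosen with earlier results of these data known, so the share is a description of the list only. The median log2 fold change was 1.00 and the range ran from -0.68 to 2.62. SPRY1, which blocks signalling between the receptor and RAS, rose by 2.62 (adjusted p = 0.000189 from limma). The ERK phosphatase DUSP4 rose by 1.87 (adjusted p = 0.000224 from limma) and FOSL1, an AP-1 subunit, by 1.82 (adjusted p = 0.000495 from limma). FOS, the one that did not pass and named for that reason, had values of 989.5, 1285.2 and 1851.4 on day 3 and of 720.1, 900.3 and 885.3 on day 5, with -0.68 on the log2 scale (adjusted p = 0.0523 from limma). It passed as lower on library totals (adjusted p = 0.0414), with edgeR (adjusted p = 0.000466) or DESeq2 (adjusted p = 0.018) on recovered reads, with the replicate block (adjusted p = 0.0292) and without day 3 replicate 1 (adjusted p = 0.0183).

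**Figure D4:**
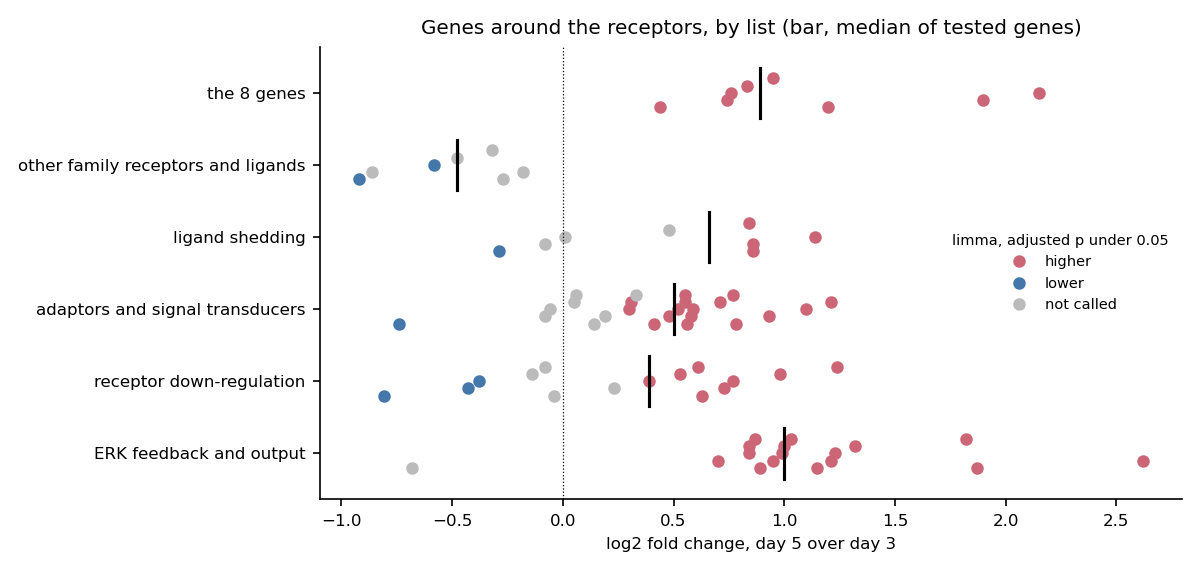
Log2 fold change of day 5 over day 3 for each tested gene (points, coloured by the limma call) in the 8 genes and in 5 lists of genes around them, with the median of each list (black bar). The medians are -0.48, 0.66, 0.50, 0.39 and 1.00 for the 5 lists from top to bottom, against 0.89 for the 8 genes.

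The 2 profiles most like each gene were sought among 12715 tested genes with a mean value of at least 100, by Euclidean distance between log2 values over the 6 libraries after each gene was centred on its own mean. For EGFR they were CAMK1D (distance 0.0694) and P4HA2 (0.101), for ERRFI1 PTK6 (0.0803) and KLF4 (0.112), for ERBB2 PHC2 (0.0433) and ENSG00000205578 (0.0444), and for ERBB3 CCNK (0.0346) and ROR2 (0.0579). AREG lay nearest to PPME1 (0.0415) and XPNPEP1 (0.0517), EREG to REST (0.0631) and NAB1 (0.0645), and TGFA to MXRA7 (0.122) and DSTNP2 (0.128). HBEGF had the least close neighbours, ENSG00000233830 (0.146) and CHAMP1 (0.213). No gene of the family was among the nearest profiles of another. With only 2 of 12715 genes kept for each, this says little about whether the family varies together. The distance also takes in the difference between the days, so genes with unlike fold changes lie apart. The neighbours of EGFR, for example, had log2 fold changes of 1.89 (CAMK1D) and 1.9 (P4HA2).

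Because the study concerns repression by miRNAs, the 3′ untranslated regions (3′UTRs) of the reference transcripts were searched for the seeds of miRNAs that are known regulators of these genes. The miRNAs were miR-7-5p for EGFR, miR-125a-5p and miR-125b-5p for ERBB2 and ERBB3, miR-205-5p for ERBB3, and miR-200b-3p, miR-200c-3p and miR-429 for ERRFI1. Their mature sequences (RefSeq, GRCh38.p14) are shown with the seed, bases 2 to 8, in capitals. miR-125a-5p and miR-125b-5p share 1 seed, as do the 3 miRNAs of the miR-200 group.
miR-7-5p: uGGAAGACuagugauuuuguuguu
miR-125a-5p: uCCCUGAGacccuuuaaccuguga
miR-125b-5p: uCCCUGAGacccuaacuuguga
miR-205-5p: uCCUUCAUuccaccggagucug
miR-200b-3p: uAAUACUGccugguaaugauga
miR-200c-3p: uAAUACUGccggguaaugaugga
miR-429: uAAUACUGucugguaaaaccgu

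The sites below, in DNA letters from GENCODE release 44 and with the 7 bases that pair with the seed in capitals, are those of the pairs of miRNA and gene named above. Positions count from the first base after the stop codon.
For miR-7-5p in EGFR:
EGFR 3′UTR site starting at base 457: agccacaaGTCTTCCagaggatg
EGFR 3′UTR site starting at base 740: acttgtttGTCTTCCattccatt
EGFR 3′UTR site starting at base 2735: ccctgaagGTCTTCCtgattgat
For miR-125a-5p and miR-125b-5p:
ERBB2 3′UTR site starting at base 37: gatgtgtcCTCAGGGagcaggga
ERBB3 3′UTR site starting at base 19: ctgtggcaCTCAGGGagcattta
For miR-205-5p:
ERBB3 3′UTR site starting at base 287: ctggagatATGAAGGattactct
For miR-200b-3p, miR-200c-3p and miR-429 in ERRFI1:
ERRFI1 3′UTR site starting at base 429: agaagataCAGTATTgtttagat
ERRFI1 3′UTR site starting at base 1004: ttcctattCAGTATTtcctgggg
ERRFI1 3′UTR site starting at base 1395: tatgtgtaCAGTATTggacaaag

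The 3′UTR of EGFR was 6011 bases long and held 3 miR-7-5p matches, while 11.6% of 19061 genes had at least 1. TGFA held 3 miR-7-5p matches as well, in 3575 bases. ERBB2 (614 bases) and ERBB3 (1450 bases) each held 1 match to the miR-125 seed close behind the stop codon, against 14.5% of genes with a match. ERRFI1 held 3 matches to the miR-200 seed in 1483 bases, and EGFR and EREG 1 each, against 16.1% of genes with a match. The miR-205-5p seed matched EGFR, ERBB3, TGFA and ERRFI1 once each (11.4% of genes had a match). AREG, with 265 bases, and HBEGF, with 1456, held no match to any of the 4 seeds. Longer 3′UTRs hold more matches by length alone, and a match does not show that a site is used.

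**Figure D5:**
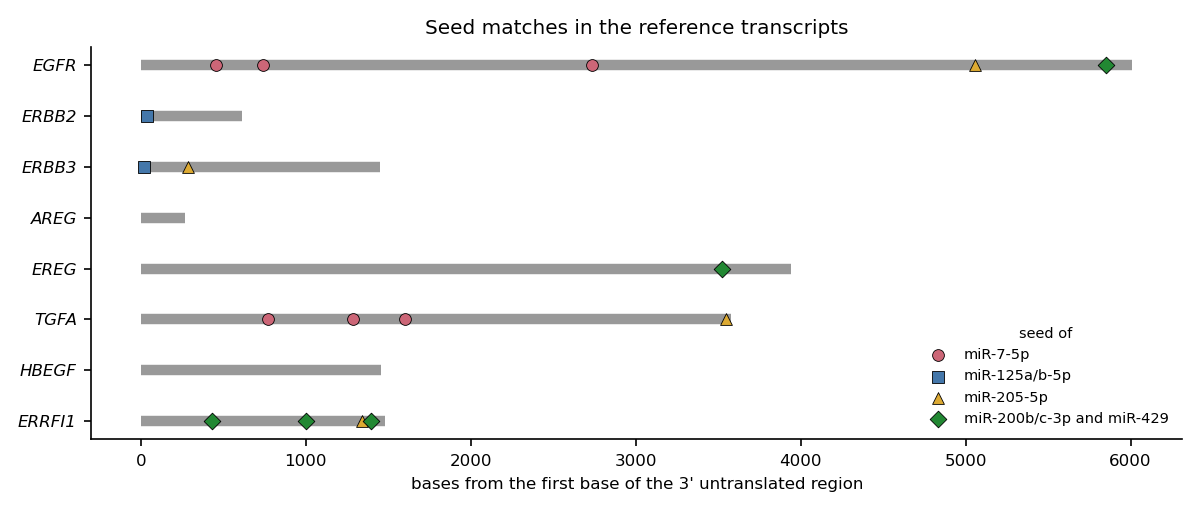
Matches to 4 miRNA seeds (symbols) along the 3′UTR of the reference transcript of each gene (grey bars, in bases from the stop codon). EGFR and TGFA hold 3 miR-7-5p matches each, ERRFI1 holds 3 matches to the miR-200 seed, and AREG and HBEGF hold none.

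In the small RNA libraries of the same days, which hold normalized log2 values from 3 replicates per day, miR-7-5p stood at 9.73, 9.83 and 9.57 on day 3 and at 9.86, 10.14 and 10.09 on day 5. The miR-7-5p values were higher on day 5, without overlap between the days, though 9.83 on day 3 lay close to 9.86 on day 5. The log2 value of miR-125a-5p was 13.76 ± 0.21 on day 3 and 13.67 ± 0.08 on day 5 (SD, n = 3), and that of miR-125b-5p was 13.76 ± 0.24 and 13.47 ± 0.06. For both miR-125 miRNAs the days overlapped. miR-200b-3p was at 11.26, 11.35 and 10.91 on day 3 and at 10.44, 10.50 and 10.42 on day 5, without overlap, whereas miR-200c-3p (12.78 ± 0.21 and 12.88 ± 0.09) and miR-429 (12.08 ± 0.24 and 11.91 ± 0.10) overlapped. miR-205-5p was near the bottom of the scale, at 0.36 or less in the libraries of both days. How many of all miRNAs had no overlap between the days was not counted, so the lack of overlap sets no miRNA apart. These values are descriptions with no test, and the number of reads behind them is unknown. Whether the miRNAs bear on the levels of the 8 genes was not tested.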

How the data were processed

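Whole transcriptome libraries of rRNA-depleted total RNA were sequenced in paired reads. The authors processed them with bcl2fastq, FastQC 0.11.8 and MultiQC 1.7 (submitters' processing notes), then trimmed and mapped the reads strand-specifically to ENSEMBL hg38 genes in CLC Genomics Workbench, with TMM normalization per the methods. The deposited values are a normalized signal per gene, and whether TMM gave the factor of each library is not settled. Dividing by the smallest step of each library gave whole reads, within 0.01, for 100% of the values. The deposited small RNA values were taken as log2 values from their range; per the methods, the authors normalized counts of reads aligned to miRNAs by TMM, with edgeR. The deposited tables also hold comparisons made by the authors (fold changes and p-values), which were not used. Day 7 whole transcriptome values were not analysed here.

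limma 3.58.1 (R 4.3.3) was fitted to log2(value + 1) with day as the only term, for genes at 10 or above in 3 or more of the 6 libraries, with Benjamini-Hochberg adjustment over all genes tested. edgeR 4.0.16 and DESeq2 1.42.0 on the recovered reads were alternatives, as were library totals, no filter, 0.1 as pseudocount, a replicate block and leaving out each library. A run of the fits on simulated data changed far fewer genes than differed here, so it does not show how the fits perform on these data. The limma p-values set the difference between the days against the spread among libraries within days. That spread is pooled over both days and drawn towards that of all genes tested. The labels call the 3 libraries of a day biological replicates, all of the same cell line. The reads of any 2 replicates differed by more than sampling noise.

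Loci, reference transcripts (MANE Select) and 3′UTRs came from GENCODE release 44, and promoters and mature miRNAs from RefSeq. Promoters were matched for 7 of the 8 genes. On the same strand, MIR4728 lies within the span of ERBB2, TGFA-IT1 within that of TGFA and ENSG00000257411 overlaps ERBB3, and their reads may not be separable. The members and gene lists were chosen with earlier results of these data known. The text names the 8 members, up to 3 genes past the threshold in each direction per list, genes at or near 0, and the 2 nearest profiles of each member. ADAM10, ADAM15, ADAM17, TIMP3, BTC, EPGN, EGF, NRG2 and FOS fall outside this rule and were named after their values were seen. miRNAs and motifs were chosen after the values were seen. Python 3.11.15 with pandas 2.3.3 and numpy 2.4.6 was used for tables, and matplotlib 3.10.9 for figures.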

Additional observations from a re-analysis of the deposited data

How the results depend on the processing

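The 8 genes stayed higher on day 5 and past the threshold under all 12 alternatives. The highest adjusted p among them was 0.0447 for EREG, in limma without a filter on low values. Leaving out 1 library gave log2 fold changes of 1.84 to 1.94 for EGFR, 0.40 to 0.48 for EREG, 0.66 to 0.97 for HBEGF and 2.09 to 2.23 for ERRFI1. The count of genes called was 11450 in limma and 9235 to 12280 over the alternatives. On library totals the share of higher calls was 56.3% in place of 51.5%. Not dividing by transcript length moved the difference in share of the ligand pool from 1.88 to 0.596 percentage points for AREG, from -2.71 to -1.6 for EREG and from 0.231 to 0.139 for HBEGF. ADAM10, at 0.01 in limma and at 0.051 at most when 1 library was left out, turned to -0.003 with edgeR and DESeq2, to -0.037 without day 3 replicate 3 and to -0.018 without day 5 replicate 3. Same-numbered libraries of the 2 days did not deviate together (correlations of -0.0112, 0.0343 and 0.0234 over 20129 genes), and not every library correlated best with its own number. With the replicate block 10533 genes were called and no call of the 8 genes changed. Depth limits the genes with few reads, such as ERBB4 with 6 to 17 reads per library, EGF with 9 to 37 and, among the 8 genes, HBEGF with 87 to 237.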
